A study of Mus musculus with 24 samples.

Results

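The 10 genes examined here govern whether a germinal centre (GC) B cell lives or dies: the anti-apoptotic genes Bcl2, Bcl2l1, Mcl1 and Bcl2a1b, the BH3-only genes Bcl2l11, Bbc3 and Pmaip1, the effector genes Bax and Bak1, and the death receptor gene Fas. Their accessible chromatin was taken as every consensus ATAC-seq peak that overlapped the gene body or the 50 kb on each side of it. This gave 145 of the 65483 peaks of the table, 8 at Pmaip1 to 22 at Bcl2, and no peak fell in more than 1 of the 10 loci. With gene bodies alone there were 46 peaks, and with 100 kb on each side 198.

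GC B cells were sorted from spleens of mice 10 days after immunization with sheep red blood cells (SRBC), with 1 ATAC-seq library per mouse. All mice carried 1 copy of the Cg1Cre allele, whose recombinase is expressed in B cells that enter the GC reaction, and were on a C57BL/6J background. Their age is 8 weeks in the study's figure legend, while its methods give a range from 8 weeks upward at immunization. The 4 WT mice carried Cg1Cre+/- alone, the 4 C mice also Crebbp fl/+, the 4 K mice also Kmt2d fl/+, and the 5 CK mice both floxed alleles, so that in each mutant group a normal copy of each gene remained. Crebbp encodes a histone acetyltransferase and Kmt2d a histone methyltransferase, and both act at enhancers. The study asked how loss of each, and of both, changes the chromatin of GC B cells.

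In apoptosis through mitochondria, BCL2, BCL-XL (from Bcl2l1), MCL1 and A1 (from Bcl2a1b) hold the pore-forming proteins BAX and BAK in check. The BH3-only proteins BIM (from Bcl2l11), PUMA (from Bbc3) and NOXA (from Pmaip1) bind the guardians, and free or activate the effectors. FAS starts a separate pathway from the cell surface. GC B cells are known for low BCL2 protein, reliance on MCL1 and high surface FAS, which was also one of the proteins used to sort these cells.

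Each library held between 17483706 and 21857738 fragments in peaks, and a median peak 85 fragments per library. The values below are CPM, counts set to a common library size after TMM scaling, which matches libraries on the bulk of their peaks. Over the body of Crebbp, 5 peaks summed to 48.8 to 51.9 CPM in CK, above all WT (43.3 to 47.5) and all C libraries (41.3 to 46.4), with K at 44.9 to 52.4. The 4 peaks of Kmt2d overlapped between all genotypes, from 120.5 to 136 CPM. Fragments outside the deleted exons do not check a heterozygous deletion. Promoter peaks were present for 6 of 6 GC B cell markers and 5 of 5 B cell markers, and absent at Cd3e, Cd4, Cd8a, Lyz2 and Itgam. The T cell gene Cd3d did have a promoter peak, with a WT mean of 28.3 CPM and 21.03 to 32.64 CPM over all libraries. The myeloid genes Cd14 and Csf1r had weaker ones, with WT means of 4.94 and 1.32 CPM. The promoters of the GC B cell markers summed to 341 to 378 CPM in WT, 320 to 354 in C, 342 to 352 in K and 307 to 350.3 in CK. Summed over whole loci, the GC B cell genes S1pr2 (log2 fold change -0.12, adjusted p = 0.00888) and Gcsam (-0.35, adjusted p = 0.00531) and the B cell gene Cd79a (-0.13, adjusted p = 0.000391) were lower in CK, 2 of 6 and 1 of 5 of their lists. Among all loci, 6.97% were called lower in CK, and with lists this short the counts cannot be told from that share. The myeloid gene Itgam was lower in K (-0.37, adjusted p = 0.00882) and CK (-0.37, adjusted p = 0.00184). In K, 3.07% of all loci were called in either direction. The other markers, those of T cells, naive or memory B cells and plasma cells included, had no locus call against WT, and the part of these shifts in the results below was not tested. Fragments at the promoters of 4 Y-linked genes were found in 2 of 4 WT, 2 of 4 C, 3 of 4 K and 2 of 5 CK libraries. The study's figure legend describes these mice as female, while its methods say that sex was not considered in the design. Differences are therefore also given within libraries with and without Y signal.

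The 8 stretches of DNA shown here are from every peak called between CK and WT whose middle 300 bases lie outside annotated exons, and the letters let a reader see what kind of element moved. Coordinates are on GRCm38, the sequence is the plus strand, and any match to 9 short motifs is in capitals.
Bcl2l1 peak in Cox4i2, gained, chr2:152756499-152756798: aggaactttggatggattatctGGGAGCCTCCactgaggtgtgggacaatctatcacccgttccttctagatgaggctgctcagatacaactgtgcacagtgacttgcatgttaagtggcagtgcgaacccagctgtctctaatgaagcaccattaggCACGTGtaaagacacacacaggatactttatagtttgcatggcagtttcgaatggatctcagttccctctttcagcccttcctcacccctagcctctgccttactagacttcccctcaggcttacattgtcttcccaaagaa
Bcl2l1 intergenic peak, gained, chr2:152766959-152767258: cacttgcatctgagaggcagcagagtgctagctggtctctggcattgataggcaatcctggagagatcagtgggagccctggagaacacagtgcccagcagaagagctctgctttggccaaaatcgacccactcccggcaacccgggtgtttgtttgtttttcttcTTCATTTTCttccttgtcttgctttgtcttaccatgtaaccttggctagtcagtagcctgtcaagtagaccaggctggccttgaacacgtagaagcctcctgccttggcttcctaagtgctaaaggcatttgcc
Bcl2l11 intronic peak, gained, chr2:128134817-128135116: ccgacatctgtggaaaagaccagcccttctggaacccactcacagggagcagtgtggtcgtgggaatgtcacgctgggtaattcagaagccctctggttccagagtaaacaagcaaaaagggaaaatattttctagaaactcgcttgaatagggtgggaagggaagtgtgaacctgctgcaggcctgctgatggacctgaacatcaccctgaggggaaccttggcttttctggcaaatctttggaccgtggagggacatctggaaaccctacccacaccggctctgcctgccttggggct
Mcl1 downstream peak, gained, chr3:95701942-95702241: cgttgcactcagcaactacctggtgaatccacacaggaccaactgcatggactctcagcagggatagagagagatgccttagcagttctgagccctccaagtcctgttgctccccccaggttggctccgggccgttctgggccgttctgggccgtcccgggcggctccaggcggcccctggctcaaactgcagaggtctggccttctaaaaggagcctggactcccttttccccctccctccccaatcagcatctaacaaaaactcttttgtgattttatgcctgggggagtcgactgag
Mcl1 upstream peak, lost, chr3:95652015-95652314: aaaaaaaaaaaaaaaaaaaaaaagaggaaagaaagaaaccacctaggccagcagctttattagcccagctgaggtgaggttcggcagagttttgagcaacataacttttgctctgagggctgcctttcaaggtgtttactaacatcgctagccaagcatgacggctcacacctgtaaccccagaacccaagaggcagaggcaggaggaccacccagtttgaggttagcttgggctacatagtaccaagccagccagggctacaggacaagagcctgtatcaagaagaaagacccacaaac
Bbc3 nearer peak in Sae1, lost, chr7:16341229-16341528: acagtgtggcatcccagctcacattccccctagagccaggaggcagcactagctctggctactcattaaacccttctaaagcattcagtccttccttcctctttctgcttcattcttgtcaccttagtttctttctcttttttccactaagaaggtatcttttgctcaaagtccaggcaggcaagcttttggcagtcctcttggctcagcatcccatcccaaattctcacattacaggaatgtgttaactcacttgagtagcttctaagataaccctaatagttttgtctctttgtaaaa
Bbc3 farther peak in Sae1, lost, chr7:16364572-16364871: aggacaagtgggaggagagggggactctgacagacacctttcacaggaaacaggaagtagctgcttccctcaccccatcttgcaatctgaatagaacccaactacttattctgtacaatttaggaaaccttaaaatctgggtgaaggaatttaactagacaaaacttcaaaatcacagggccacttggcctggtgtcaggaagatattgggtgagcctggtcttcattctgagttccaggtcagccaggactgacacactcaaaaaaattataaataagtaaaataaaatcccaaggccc
Bax peak in Ruvbl2, lost, chr7:45427924-45428223: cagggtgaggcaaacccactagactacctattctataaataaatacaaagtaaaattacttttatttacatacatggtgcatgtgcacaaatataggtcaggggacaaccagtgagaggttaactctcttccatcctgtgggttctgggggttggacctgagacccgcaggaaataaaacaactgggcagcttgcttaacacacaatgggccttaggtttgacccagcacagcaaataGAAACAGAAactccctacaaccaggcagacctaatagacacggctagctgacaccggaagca

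The motifs searched on both strands were GAGGAAGT (PU.1 or SPIB), ATGCAAAT (octamer), TGANTCA (AP-1), TTCNNNGAA (STAT), GAAANNGAA (IRF), TAAAAATA (MEF2), CACGTG (E-box), and NF-kB and p53 sites by name. In the first sequence the capitals mark an NF-kB match and an E-box. An IRF match stands in capitals in the second and in the last, and the other sequences held no match. In the same window, 7.24% of all peaks held the NF-kB motif, 5.88% the E-box and 10.6% the IRF motif. Among the 145 peaks of the loci these shares were 6.9%, 8.28% and 9.66%, and AP-1 matches occurred in 15.2% against 8.92% of all peaks. A match is only a run of letters, and binding was not measured here.

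Comparisons with WT came first. A peak was called when the quasi-likelihood test of edgeR, corrected by Benjamini-Hochberg over all 65483 peaks, gave an adjusted p below 0.01, and it is named gained when higher and lost when lower in the mutant. In CK, 10 of the 145 peaks (6.9%) were called, 5 gained and 5 lost, close to the 6.84% of all peaks (3.54% gained and 3.3% lost). In C, 0 of 145 were called beside 0.16% of all peaks, and in K 0 of 145 beside 1.48%. DESeq2's Wald test called 0 in C and 3 in K (2.07%, beside 2.47% of all peaks). An unadjusted p under 0.05 was found for 14 peaks in C (9.66%, beside 8.9%) and 26 in K (17.9%, beside 20.6%). The median log2 fold change over the 145 peaks was -0.013 in C, -0.0079 in K and -0.038 in CK, beside -0.00026, 0.0015 and 0.0029 over all peaks. The 10 calls in CK fell to 5 without CK mouse 2, and to 6 without WT mouse 1, 2 or 4 or CK mouse 1. In bulk libraries, fewer cells with an open site and less opening per cell cannot be told apart.

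**Figure D1:**
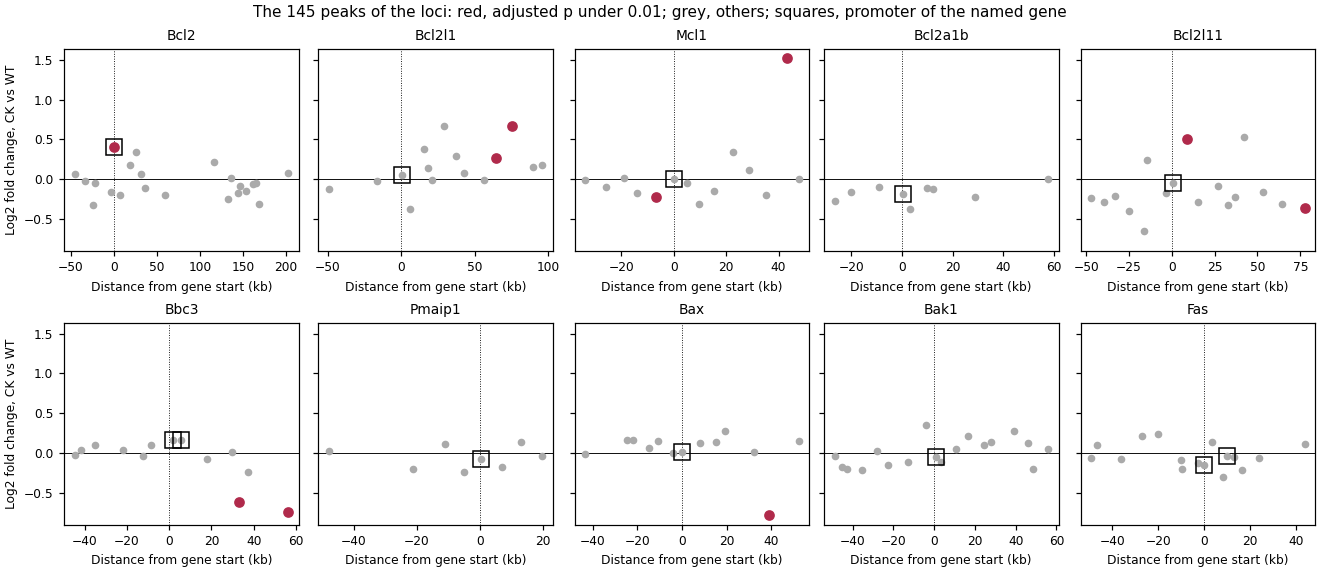
Log2 fold change of accessibility in CK against WT for the 145 peaks, plotted by the distance in kb of each peak centre from the start of its gene, in the direction of transcription. Red points are the 10 peaks with an adjusted p under 0.01, grey points the others, and open squares the promoter peaks of the named gene. A single red point, at Bcl2, is a promoter of its gene.

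Promoters and distal peaks had medians on different sides of 0. Of the 35 peaks at a promoter of any protein-coding gene, 13 were below 0 in CK with a median of 0.052, 2 were gained and 0 lost, beside 8.61% gained and 1.48% lost among all 16179 promoter peaks, whose median was 0.055. Of the 110 other peaks, 70 were below 0 with a median of -0.077, beside -0.029 for all 49304 such peaks. The same medians in K were 0.041 at promoters and -0.076 elsewhere, and in C -0.01 and -0.014.

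Taken per length, the 10 promoters differed widely in how open they were, and their order is given for WT as CPM per kb of peak. That of Bcl2l1 was the most accessible, at 68.2 ± 1.48 (SD, n = 4), and that of Bcl2l11 came next at 55.8 ± 1.82. Bbc3 (34.9 ± 3.48) and Mcl1 (32.8 ± 1.69) followed with overlapping mice, then Pmaip1 (29.6 ± 1.26) and Bak1 (29.5 ± 1.81), which also overlapped. Fas had 23.8 ± 2.22 and Bax 16.8 ± 1.28, each apart from its neighbours in every WT mouse. The least accessible were Bcl2a1b (11.8 ± 0.384) and Bcl2 (10.8 ± 1.14), whose mice overlapped. Peak widths were set by the peak caller, so that a wide peak with a narrow summit has a low value on this scale.

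**Figure D2:**
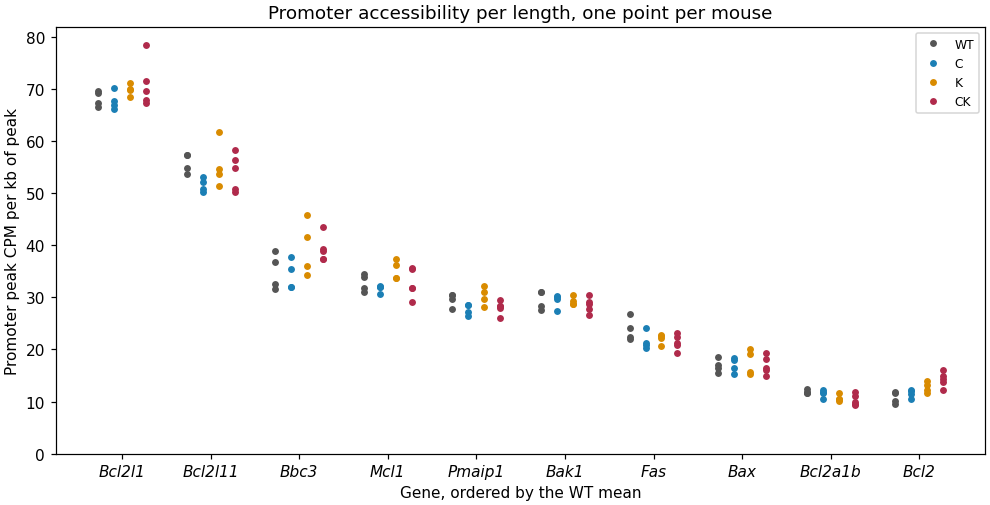
Accessibility of the promoter peak of each gene in CPM per kb of peak, 1 point per mouse, in grey for WT, blue for C, orange for K and red for CK, ordered by the WT mean. Bcl2l1 stands highest at 68.2 and Bcl2 lowest at 10.8 in WT, and among these 10 promoters only at Bcl2 do all CK mice lie above all WT mice.

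Among the anti-apoptotic genes, the promoter of Bcl2, the gene first found at a lymphoma translocation, was more accessible in CK. The peak spans 2826 bp with its centre 752 bp inside the gene (chromosome 1, 106712110 to 106714935), and overlaps an annotated exon. In WT mice it held 32.8, 33.6, 28.3 and 27.1 CPM, in C mice 34.2, 34.4, 29.8 and 32.2, in K mice 39.4, 36.98, 34.4 and 33.03 and in CK mice 45.3, 34.6, 39, 41.9 and 40.6. All 5 CK mice lay above all 4 WT mice, while C and K overlapped WT. The mean rose from 30.4 ± 3.22 CPM (SD, n = 4) to 40.3 ± 3.94 CPM (SD, n = 5), a log2 fold change of 0.41 (SE 0.075, adjusted p = 0.000738), and the call held in all 17 fits that left out 1 mouse. Against WT the changes in C and K were 0.10 (adjusted p = 0.761) and 0.24 (adjusted p = 0.0767). In libraries with and without Y signal, CK lay 0.39 and 0.46 above WT on the log2 scale. The other 21 peaks of the locus had no call, and its most accessible peak, at the promoter of the neighbouring gene Kdsr, differed by a log2 fold change of 0.067 (SE 0.041, adjusted p = 0.29).

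At Bcl2l1, 2 peaks were gained in CK, both beyond the end of the gene, of which 1 is at a promoter of a neighbouring gene. The peak with the lowest p of the locus overlaps Cox4i2, which encodes a subunit of cytochrome c oxidase, and lies within 1 kb of one of its transcript starts (chromosome 2, 152755958 to 152757339), 75080 bp from the start of Bcl2l1. WT mice gave values of 23.4, 17.4, 18.6 and 20.8 CPM, C mice 23.03, 20.8, 26.3 and 24.6, K mice 28.3, 20.8, 28.3 and 29.1 and CK mice 28.8, 35.97, 34.8, 31.03 and 28.3. All CK mice were above all WT mice, and C and K mice lay between or overlapped both. The rise from 20.1 ± 2.62 CPM (SD, n = 4) to 31.8 ± 3.48 CPM (SD, n = 5) was a log2 fold change of 0.67 (SE 0.10, adjusted p = 9.07e-05), called in all 17 leave-one-out fits. Its changes in C (0.24, adjusted p = 0.502) and K (0.41, adjusted p = 0.0212) were not called.

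The second, intergenic peak (chromosome 2, 152766125 to 152768091) changed less. The WT mice held 16.97, 17.9, 18.8 and 18.2 CPM, C mice 20.7, 18.9, 18.3 and 19.3, K mice 21.97, 18.8, 18.7 and 19.2 and CK mice 20.6, 21.9, 21.4, 22.7 and 21.2. All CK mice again exceeded all WT mice, with a log2 fold change of 0.26 (SE 0.066, adjusted p = 0.00904), but the adjusted p passed 0.01 when any 1 of 15 mice was left out, and the call held only without C 1 or K 1 (adjusted p between 0.00692 and 0.0302 over the 17 fits). It was also lost with only CK and WT fitted (adjusted p = 0.016). The promoter of Bcl2l1, its most accessible peak, gave no call, with 99.1 ± 2.16 CPM (SD, n = 4) in WT and 103 ± 6.58 CPM (SD, n = 5) in CK, for a log2 difference of 0.058 (SE 0.042, adjusted p = 0.393).

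Mcl1, on which GC B cells depend, had a gained and a lost peak, both intergenic, and no call at its promoter. The gained peak, 43303 bp downstream of the gene start (chromosome 3, 95701689 to 95702494), was weak. Its level in WT mice was 0.479, 0.313, 0.609 and 0.443 CPM, in C mice 1.09, 0.902, 1.57 and 1.11, in K mice 1.22, 0.6796, 1.15 and 1.2 and in CK mice 1.03, 1.51, 1.42, 1.395 and 1.38. Every mouse of the 3 mutant groups lay above every WT mouse. The log2 fold change was 1.52 (SE 0.25, adjusted p = 0.00028) in CK, 1.19 (SE 0.28, adjusted p = 0.012) in K and 1.31 (SE 0.27, adjusted p = 0.0208) in C. The change in CK was the largest of the 10 calls there, and it held in all 17 leave-one-out fits.

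The lost peak, 6624 bp upstream of the gene start (chromosome 3, 95650430 to 95653898), was among the more accessible of the locus. WT mice had 100.1, 93.4, 96.8 and 104 CPM, C mice 92.7, 89.1, 89.7 and 94.3, K mice 87.3, 89.4, 80.5 and 93.01 and CK mice 87.6, 79.04, 81.5, 79.7 and 93.7. CK mouse 5 and WT mouse 2 overlapped narrowly, and all K mice lay below all WT mice. The fall to 84.3 ± 6.26 CPM (SD, n = 5) from 98.5 ± 4.4 CPM (SD, n = 4) was a log2 fold change of -0.22 (SE 0.050, adjusted p = 0.00348), and the adjusted p rose to 0.0104, 0.0216, 0.0114 and 0.0122 without WT 1, WT 4, CK 2 and CK 4. The promoter of Mcl1 held 61.1 ± 3.15 CPM (SD, n = 4) in WT and 61.01 ± 5.15 CPM (SD, n = 5) in CK, for a log2 difference of -0.0019 (SE 0.054) with adjusted p = 0.987, and the most accessible peak, at the promoter of Ensa, differed by a log2 fold change of -0.015 (SE 0.039, adjusted p = 0.847).

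Bcl2a1b, one of the copies of the A1 gene, had no called peak. Its near-identical copies make the fragment counts here uncertain, since reads that match several copies may be lost or split, and the predicted gene Gm29094 overlaps it. Its lowest p was at an intronic peak (chromosome 9, 89201759 to 89202689), with 13.4 ± 1.05 CPM (SD, n = 4) in WT and 10.3 ± 1.06 CPM (SD, n = 5) in CK, for a log2 difference of -0.37 (SE 0.11, adjusted p = 0.0175), where the CK mice were all under the WT mice. Its promoter, also its most accessible peak, differed by a log2 fold change of -0.19 (SE 0.071, adjusted p = 0.0692). In CK, 8 of the 9 peaks were below 0, beside 49.4% of all peaks, and in K 9 and in C 7 were.

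Of the BH3-only genes, Bcl2l11 encodes BIM, and 14 of its 17 peaks were below 0 in CK, with 1 gained and 1 lost. In K 12 and in C 10 of them were below 0. Among all peaks 49.4% were below 0 in CK, and 54.6% of those away from promoters. The gained peak lies in an intron, 8928 bp from the gene start (chromosome 2, 128134303 to 128135630). The 4 WT mice gave 10.96, 11.2, 10.5 and 10.1 CPM, C mice 14.6, 12.9, 14.3 and 13.5, K mice 16.7, 12.4, 12.1 and 17.1 and CK mice 13.6, 15.99, 14.7, 16.2 and 14.98. Every mutant mouse lay above every WT mouse, with a log2 fold change of 0.50 (SE 0.10, adjusted p = 0.0013) in CK, 0.45 (SE 0.10, adjusted p = 0.0119) in K and 0.37 (SE 0.10, adjusted p = 0.15) in C. The lost peak lies outside coding genes, over exons of the long non-coding RNA Gm14009, 77614 bp from the gene start (chromosome 2, 128202819 to 128204485). At this peak WT mice held 27.5, 26.9, 27.7 and 28.1 CPM, C mice 27.1, 21.9, 25.4 and 26.02, K mice 25.9, 22.3, 25.1 and 24.96 and CK mice 20.3, 22.02, 21.9, 22.7 and 20.1. All CK and all K mice lay below all WT mice, and the log2 fold change was -0.36 (SE 0.066, adjusted p = 0.00058) in CK and -0.16 (SE 0.069, adjusted p = 0.167) in K. Both calls in CK held in all 17 leave-one-out fits, whereas the promoter, the most accessible peak, held 146 ± 4.78 CPM (SD, n = 4) in WT and 142 ± 9.16 CPM (SD, n = 5) in CK with a log2 fold change of -0.044 (SE 0.049, adjusted p = 0.608).

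Bbc3, which encodes PUMA, a BH3-only protein under p53 control, had 2 weak lost peaks, both inside the body of the neighbouring gene Sae1. In the nearer one (chromosome 7, 16341203 to 16341554), WT mice held 2.98, 2.98, 2.44 and 3.54 CPM, C mice 2.83, 3.29, 2.27 and 2.87, K mice 1.91, 2.55, 2.46 and 2.26 and CK mice 1.57, 1.78, 1.99, 2.24 and 2.13. CK lay below WT in every mouse, with a log2 fold change of -0.61 (SE 0.15, adjusted p = 0.00791), and the adjusted p was 0.0163, 0.0184, 0.0464, 0.0245, 0.0193 and 0.0135 without WT 1, WT 2, WT 4, CK 1, CK 2 and CK 3. In the farther one (chromosome 7, 16364408 to 16365034), WT mice held 1.33, 1.25, 1.83 and 1.495 CPM, C mice 1.79, 1.58, 1.72 and 1.49, K mice 1.17, 1.303, 1.26 and 1.57 and CK mice 0.788, 0.915, 0.7099, 1.15 and 0.864. CK lay below WT and C in every mouse, with log2 fold changes of -0.74 (SE 0.19, adjusted p = 0.00958) against WT and -0.89 (SE 0.19, adjusted p = 0.00578) against C. The first of these held in only 3 of the 17 leave-one-out fits (adjusted p up to 0.056, without WT 3), and the second in 10 (up to 0.0192, without C 1). DESeq2's Wald test gave an adjusted p of 0.0121 for the nearer peak, and of 0.0297 against WT and 0.0109 against C for the farther one, and none of the 3 calls held with GC content bins (0.0177, 0.0158 and 0.0109) or with only the compared genotypes fitted (0.0148, 0.0244 and 0.0122). The farther peak also passed 0.01 against WT with total counts (0.0111). The promoter of Bbc3 differed by a log2 fold change of 0.17 (SE 0.073, adjusted p = 0.123), and the most accessible peak of the locus, upstream of it, by -0.035 (SE 0.047, adjusted p = 0.678).

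Pmaip1, which encodes NOXA, a partner of MCL1, gave no call against WT. Its 1 call was lower in K than in C, at a peak over an exon 6965 bp from the gene start (chromosome 18, 66464719 to 66466278). Here WT mice had 4.097, 3.86, 4.55 and 4.26 CPM, C mice 6.42, 4.38, 4.802 and 5.73, K mice 3.13, 3.34, 4.29 and 2.77 and CK mice 3.64, 3.88, 3.41, 3.69 and 4.03. C mice were all above K mice, and WT mice lay between them in the mean, with a log2 fold change of -0.66 (SE 0.14, adjusted p = 0.00943) in K against C. The call held in 4 of the 17 leave-one-out fits, with adjusted p up to 0.0417 without K 1, and it was lost with loess offsets (0.014), GC content bins (0.0255), a Y signal covariate (0.012) or only those genotypes fitted (0.0267). In CK against WT the same peak differed by a log2 fold change of -0.17 (SE 0.13, adjusted p = 0.426), the promoter by -0.079 (SE 0.049, adjusted p = 0.302) and the peak of lowest p by -0.20 (SE 0.071, adjusted p = 0.0594).

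The effector genes showed little. At Bax, surrounded by 9 other coding genes, the only called peak lies in Ruvbl2, with its centre in an intron, 38825 bp from the start of Bax (chromosome 7, 45427584 to 45428563). The level in WT mice was 4.15, 7.31, 6.47 and 7.03 CPM, in C mice 5.47, 5.91, 8.897 and 6.85, in K mice 3.08, 5.27, 3.66 and 4.52 and in CK mice 3.54, 2.58, 3.46, 3.49 and 5.13. WT mouse 1 overlapped CK, and the C mice lay above all CK mice. The log2 fold change was -0.78 (SE 0.19, adjusted p = 0.00565) against WT and -0.90 (SE 0.18, adjusted p = 0.00507) against C. The call against WT was lost without WT 2, WT 3, WT 4, CK 1, CK 2, CK 3 or CK 4 (adjusted p up to 0.0266, without WT 4), and that against C without C 3, C 4, CK 1, CK 2, CK 3 or CK 4 (up to 0.0272, without C 3). The promoter of Bax differed by a log2 fold change of 0.015 (SE 0.088, adjusted p = 0.939), and the most accessible peak, at the promoter of the ferritin light chain gene Ftl1, by 0.13 (SE 0.068, adjusted p = 0.213).

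At Bak1, none of the 18 peaks was called by edgeR. The lowest p was at a peak in Ggnbp1 (chromosome 17, 27011694 to 27012925) with 24.2 ± 0.362 CPM (SD, n = 4) in WT and 28.1 ± 1.64 CPM (SD, n = 5) in CK, for a log2 difference of 0.22 (SE 0.060, adjusted p = 0.0155), and all mutant mice lay above all WT mice. The promoter of Bak1, shared with Ggnbp1, differed by a log2 fold change of -0.047 (SE 0.050, adjusted p = 0.583), and that of Itpr3, the most accessible peak, by 0.032 (SE 0.042, adjusted p = 0.669).

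Fas, the death receptor, had no called peak among 16. At its promoter WT mice held 27.03, 24.6, 25.1 and 30.1 CPM, C mice 22.8, 23.4, 23.8 and 27.1, K mice 23.2, 25.3, 24.9 and 25.6 and CK mice 25.1, 23.4, 21.7, 23.9 and 25.9. The groups overlapped, and the difference between CK and WT was a log2 fold change of -0.16 (SE 0.070, adjusted p = 0.138) at this promoter, -0.30 (SE 0.13, adjusted p = 0.112) at the intronic peak of lowest p and -0.069 (SE 0.058, adjusted p = 0.476) at the most accessible peak, at the promoter of Acta2.

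**Figure D3:**
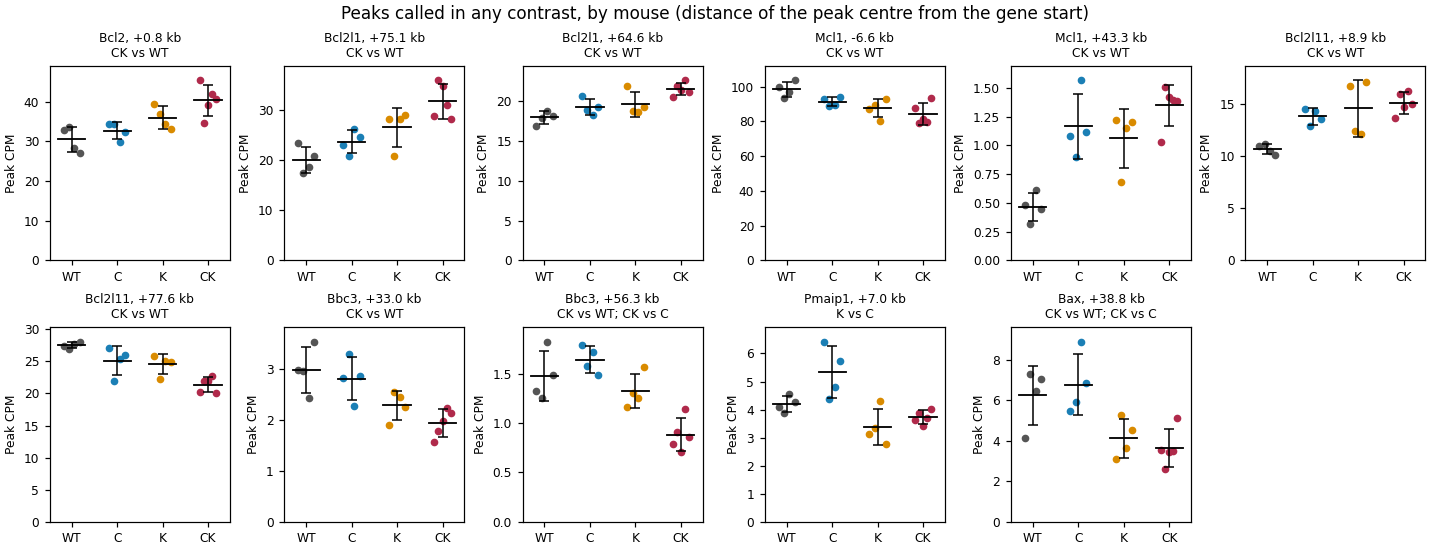
Accessibility in CPM, starting at 0, of the 11 peaks called in any contrast, 1 point per mouse, with bars for the mean and SD of each group. Titles give the gene, the distance of the peak centre from the gene start and the contrast of the call. The distal Mcl1 peak that was gained and the intronic Bcl2l11 peak have every mutant mouse above every WT mouse.

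All 10 peaks called in CK had the same sign in libraries with and in those without Y signal. They were called from these same libraries, so this is a description and does not check the calls. Where no CK mouse overlaps a WT mouse, the sign could not differ between the sets. Groups did not overlap between CK and WT mice at 16 of the 145 peaks (11%), 6 above and 10 below WT, beside 13% of all peaks. For K these were 14 peaks (9.66%) beside 11.3%, and for C 7 peaks (4.83%) beside 5.66%.

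Between the mutant genotypes few peaks separated. CK against C called the 2 lost peaks at Bbc3 and Bax (1.38%, beside 1.68% of all peaks), and K against C the 1 peak at Pmaip1 (0.69%, beside 0.788%). For CK against K edgeR called 0 of 145 peaks beside 0.00916% of all peaks, with 18 (12.4%, beside 7.35%) at an unadjusted p under 0.05. CK set against the added effects of C and K called 0 beside 0.0107%, with 6 (4.14%, beside 3.73%) at an unadjusted p under 0.05. DESeq2's Wald test called 0 in both of these. Each of these contrasts with C or K shares its mice with the contrasts against WT.

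Each locus was then taken as a whole, as the sum of all its peaks, and compared among 18082 protein-coding genes with a peak. A peak was counted once for each gene window that it overlapped. Locus CPM are set to the library total of these summed counts, with TMM scaling over loci. They are on another scale than peak CPM, so a locus can show fewer CPM than 1 of its peaks. In CK, Bcl2l1 was higher and Bcl2a1b lower, 2 of 10 loci, beside 14.7% of all loci (7.78% higher and 6.97% lower). Of all loci called in CK 52.8% were higher, and 81% when libraries were scaled by total counts in place of TMM. C called 0 of 10 beside 0.293%, K 0 beside 3.07%, CK against K 0 beside 0%, CK against C 0 beside 3.21%, K against C 0 beside 0.492%, and CK against the added effects 0 beside 0.0885%. At an unadjusted p under 0.05 these 6 contrasts counted 0, 4, 1, 3, 0 and 0 of the 10 loci, beside 10.7%, 28.4%, 8.83%, 29.5%, 22.2% and 3.07% of all loci, and DESeq2's Wald test called 0 in each. For CK against WT, 7 of the 10 loci had an unadjusted p under 0.05, beside 40.6% of all loci. There DESeq2's Wald test called 5, beside 19% of all loci.

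Bcl2l1 moved most clearly. Its locus sum in WT mice was 96.1, 91.6, 91.1 and 97.7 CPM, in C mice 96.5, 96.1, 99.1 and 97.4, in K mice 97.1, 88.8, 96.1 and 99.9 and in CK mice 103, 103, 104, 102 and 98.6. All 5 CK mice lay above all 4 WT mice, and the mean rose from 94.1 ± 3.26 CPM (SD, n = 4) to 102 ± 1.95 CPM (SD, n = 5), a log2 fold change of 0.12 (SE 0.029, adjusted p = 0.00603). Against WT it was 0.047 in C (adjusted p = 0.629) and 0.021 in K (adjusted p = 0.681). The gene body alone gave a log2 fold change of 0.049 (adjusted p = 0.315), and the locus without promoter peaks 0.18 (adjusted p = 0.0108). The call was lost without WT 2 (adjusted p = 0.0222), WT 3 (0.0278), CK 1 (0.0155), CK 2 (0.0127), CK 3 (0.0147) or CK 4 (0.0123). The 3 loci with the pattern most like it over the 17 libraries were Isl1 (Pearson's r = 0.849), Siglece and Ceacam18 (both 0.816), a description over libraries that share genotype. Siglece and Ceacam18, both on chromosome 7, also had the same log2 fold change in CK (0.1332), so they cannot be taken as separate patterns.

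Bcl2a1b was lower. Its locus sum in WT mice was 23.2, 21.7, 23.2 and 23.2 CPM, in C mice 18.97, 21.2, 21.6 and 22.8, in K mice 19.1, 20.1, 21.03 and 20.8 and in CK mice 17.6, 20.9, 21.98, 18.96 and 18.6. CK mouse 3 overlapped WT mouse 2, and all K mice lay below all WT mice. The mean fell from 22.8 ± 0.759 CPM (SD, n = 4) to 19.6 ± 1.79 CPM (SD, n = 5), a log2 fold change of -0.22 (SE 0.059, adjusted p = 0.00977), which came to -0.11 (adjusted p = 0.0571) when libraries were matched within bins of GC content. It was also lost with total counts (adjusted p = 0.0223), only CK and WT fitted (0.0143), a window of 100 kb (0.0117) or no promoter peaks (0.0308). The call held in 5 of the 17 leave-one-out fits, with an adjusted p of up to 0.0311 without WT 4.

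The next 5 loci by p were all lower in CK in the mean, with no call, although 3 of them were called under some alternatives. For Mcl1 the sum in WT mice was 164, 164, 165 and 177 CPM, in C mice 162, 158, 167 and 169.5, in K mice 153, 159.8, 154 and 164 and in CK mice 151, 143, 153, 148 and 167. Only CK mouse 5 reached the range of WT. The log2 fold change was -0.13 (SE 0.037, adjusted p = 0.0115), and it was called without CK 5 (adjusted p = 0.000919), by DESeq2's Wald test (0.00258) and with a Y signal covariate (0.00504). For Pmaip1 the sum in WT mice was 39.2, 37.9, 38.6 and 36.6 CPM, in C mice 37.6, 37.4, 38.3 and 37.6, in K mice 36.4, 37.05, 38.4 and 34.7 and in CK mice 35.3, 36.1, 34.6, 36.4 and 34.8. The CK mice were all under the WT mice, with a log2 fold change of -0.10 (SE 0.029, adjusted p = 0.0118) that was called without WT 4 (adjusted p = 0.00968), K 3 (0.0084) or K 4 (0.00694), by DESeq2's Wald test (0.00581) and with loess offsets (0.00613). For Bcl2l11 the sum in WT mice was 139, 134, 134 and 144 CPM, in C mice 136, 127, 135 and 133, in K mice 138, 119.5, 132 and 140.5 and in CK mice 128, 123, 123, 133 and 124. Here too the CK mice were all under the WT mice, and the log2 fold change was -0.13 (SE 0.039, adjusted p = 0.0204), called without K 2 (adjusted p = 0.00384), by DESeq2's Wald test (0.00823) and with only CK and WT fitted (0.00799).

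At Fas the sum in WT mice was 60.99, 57.6, 62.7 and 69.4 CPM, in C mice 57.4, 58.7, 60.95 and 67.1, in K mice 53.8, 58.4, 62.5 and 61.6 and in CK mice 55.1, 58.3, 57.1, 56.9 and 60.7. The groups overlapped, with WT mouse 4 the highest of all, and CK differed from WT by a log2 fold change of -0.12 (SE 0.052, adjusted p = 0.0883). At Bak1 the sum in WT mice was 141, 141, 140.1 and 146 CPM, in C mice 143, 139.8, 142 and 139, in K mice 138, 139.9, 136 and 138 and in CK mice 138, 140.3, 138, 138 and 136. All K mice lay below all WT mice, CK overlapped WT by 1 mouse, and CK differed from WT by a log2 fold change of -0.039 (SE 0.017, adjusted p = 0.0935) and K by -0.041 (SE 0.018, adjusted p = 0.147).

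The remaining loci differed least between CK and WT. For Bcl2 the sum in WT mice was 83.3, 81.3, 81.4 and 82.2 CPM, in C mice 81.4, 81.1, 81.4 and 82.9, in K mice 77.3, 77.7, 80.6 and 80.5 and in CK mice 80.8, 80.98, 86.2, 80.9 and 78.8. All K mice lay below all WT mice (log2 fold change -0.054, adjusted p = 0.148), whereas CK overlapped WT at -0.0085 (SE 0.023, adjusted p = 0.807) although the promoter was gained. Bbc3 summed to 169 ± 6.85 CPM (SD, n = 4) in WT and 171 ± 6.53 CPM (SD, n = 5) in CK, for a log2 difference of 0.019 (SE 0.032, adjusted p = 0.683), and Bax to 92.5 ± 3.02 CPM (SD, n = 4) and 94.9 ± 3.19 CPM (SD, n = 5), a log2 fold change of 0.038 (SE 0.036, adjusted p = 0.455). The 95% intervals of these 3 CK differences, taken as 1.96 SE on either side, ran from -0.053 to 0.036, from -0.044 to 0.083 and from -0.033 to 0.11. Promoters of other genes made up 86.4% of the Bax sum and none of the Bcl2l11 or Pmaip1 sums. Within libraries of like Y signal, 8 of the 10 loci kept the sign of their CK difference in both sets, and Bcl2 and Bax did not.

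**Figure D4:**
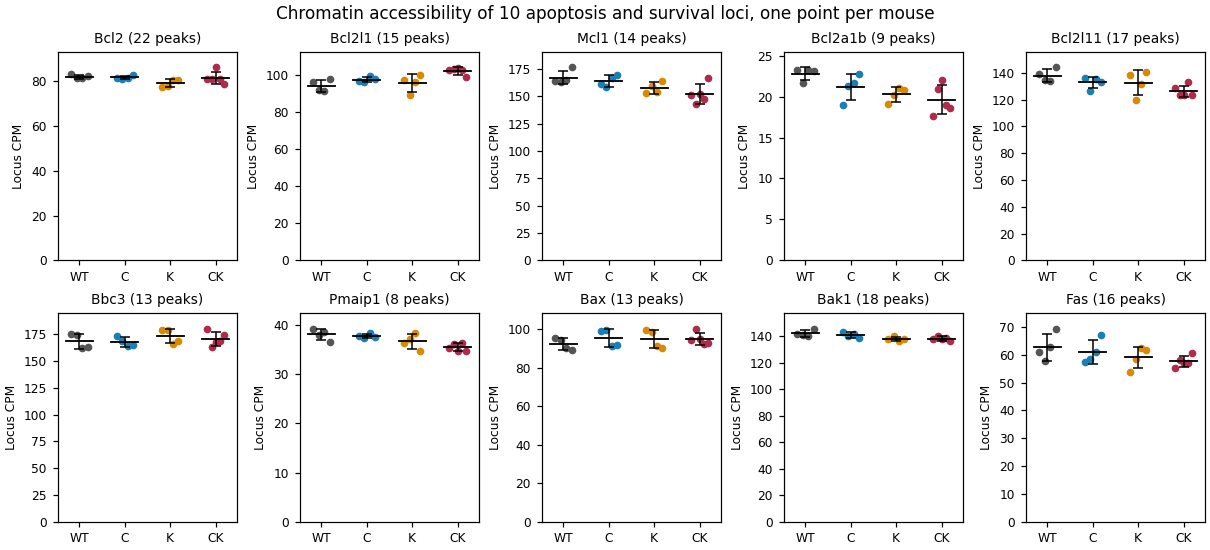
Summed accessibility of each locus in CPM on the locus scale, starting at 0, 1 point per mouse, with bars for the mean and SD. Differences between groups are small beside the level of each locus. The CK mice lie apart from the WT mice at Bcl2l1, Bcl2l11 and Pmaip1, and the K mice at Bcl2, Bcl2a1b and Bak1. The share of all loci that separate in this way was not counted, so these separations are a description only.

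**Figure D5:**
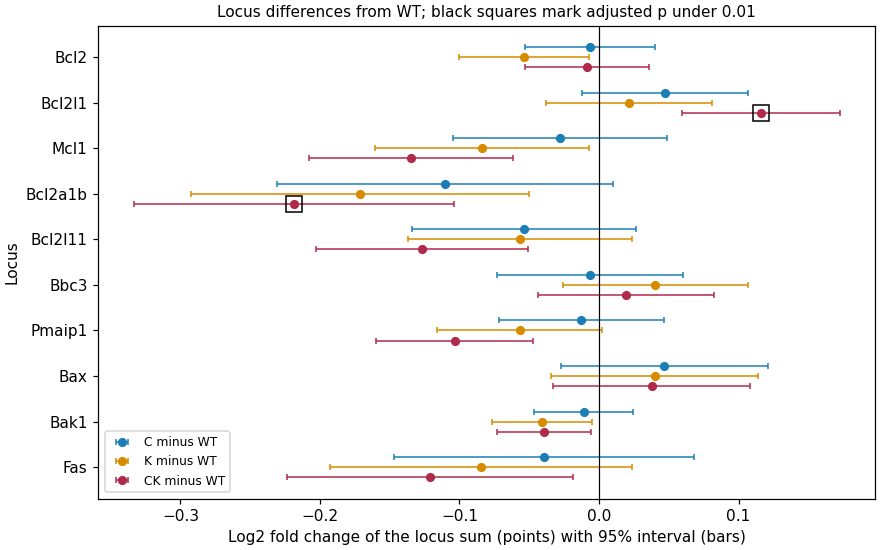
Log2 fold change of each locus sum against WT in C (blue), K (orange) and CK (red), with 95% intervals of 1.96 SE as bars. Black squares mark the 2 loci with an adjusted p under 0.01, Bcl2l1 and Bcl2a1b in CK.

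Other genes of the pathway were a list of 34 that included further BH3-only genes, caspases, inhibitors of apoptosis, death receptor adaptors, Trp53 and Mdm2. In CK, 2 of their 34 loci were higher and 3 lower (14.7% called, beside 14.7% of all loci), and of 33 promoter peaks 3 were gained and 0 lost (9.09%, beside 8.61% gained and 1.48% lost among all promoter peaks), so that the list as a whole was called about as often as other genes. C and K called none of either. Hrk, a BH3-only gene, was higher over its locus (log2 fold change 0.30, SE 0.054, adjusted p = 0.000662) and gained at its promoter (0.62, SE 0.14, adjusted p = 0.00471), from 2.38 ± 0.608 CPM over the 4 WT mice to 3.67 ± 0.166 over the 5 CK mice (both SD). Bok, a relative of Bax and Bak1, was also higher (0.11, adjusted p = 0.00665) and gained at its promoter (0.74, SE 0.13, adjusted p = 0.000517), from 2.44 ± 0.504 to 4.11 ± 0.229 CPM. The promoter of Bik, which encodes a BH3-only protein, was gained too (0.32, SE 0.077, adjusted p = 0.00621). Lower in CK were the loci of Cflar, which encodes an inhibitor of caspase-8 (-0.12, SE 0.023, adjusted p = 0.000858), of the death receptor Tnfrsf10b (-0.18, SE 0.035, adjusted p = 0.00139) and of Bid, whose product links death receptors to mitochondria (-0.17, SE 0.038, adjusted p = 0.0034). The median over the list was -0.013 for loci and 0.028 for promoters, beside 0.0025 over all loci and 0.055 over all promoter peaks.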

How the data were processed

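The authors made Omni-ATAC libraries from sorted GC B cells, sequenced them as paired ends, aligned the reads to mm10 and called consensus peaks with an nf-core pipeline. They deposited raw fragment counts per peak from featureCounts 2.0.1, in which a fragment could count for several overlapping peaks; no normalization was applied. All 17 columns were used. Reads and peak calls were not reprocessed, so the handling of reads that match several places, the consensus peak rule and the duplicate filter are those of the authors.

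Genes were placed with GENCODE M21 (GRCm38, the mm10 build), and all 65483 peaks end inside its chromosomes. Counts were scaled by TMM and fitted in edgeR 4.0.16 (R 4.3.3), over all 17 libraries with 1 coefficient per genotype and no covariate. The quasi-likelihood F test was two-sided, with Benjamini-Hochberg adjustment over all peaks, or over all 18082 loci for sums over a gene body and 50 kb on each side. The threshold was an adjusted p of 0.01, and SE was the log2 fold change over the square root of F. Peaks under 10 counts in all were to be removed, and there were 0. Promoter peaks overlapped 1 kb on either side of a transcript start. The fit was also run on simulated counts. The changes planted there were larger than those of the called loci, so that run does not bear on effects this small. With 4 or 5 mice per group, mice are the replicates.

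The peaks named were the promoter peak of each gene (that with the highest mean CPM), every called peak, and per gene the peaks with the lowest p in CK against WT and with the highest CPM. The 10 genes and the lists of other genes were chosen with earlier results of these data known. DESeq2 1.42.0 was an alternative, as were other scalings, filters, windows, covariates and leaving out each mouse. Sequences and GC content were read from GRCm38 (RefSeq), and sequence from the Pmaip1 locus is not shown. Libraries of sorted centroblasts and centrocytes were not analysed here.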

Additional observations from a re-analysis of the deposited data

Results flagged for a closer look

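Within each genotype, the mouse farthest from the others was examined for the 10 locus sums and the named peaks by Dixon's ratio of its gap to the group's range. Of 160 groups examined, 14 held such a mouse, where chance alone flags about 1 in 20 groups, or 8. All values are CPM, on the locus scale for locus sums and on the peak scale for peaks. Among locus sums, Bcl2l1 was low in CK mouse 5 (98.6, the others 102 to 104), Mcl1 high in WT mouse 4 (177, the others 164 to 165) and Bcl2a1b low in WT mouse 2 (21.7, the others 23.2).

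Of the peaks gained in CK, that of Bcl2l1 in Cox4i2 was low in K mouse 2 (20.8, the others 28.3 to 29.1), and its intergenic peak was high in K mouse 1 (21.97, the others 18.7 to 19.2). The distal Mcl1 peak was low in K mouse 2 (0.68, the others 1.15 to 1.22) and in CK mouse 1 (1.03, the others 1.38 to 1.51).

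The remaining 7 were peaks with no call in CK against WT. At the Mcl1 locus, the Ensa promoter was high in C mouse 4 (120.5, the others 116 to 117), and the Mcl1 promoter was low in C mouse 3 (57.2, the others 59.6 to 59.9). The most accessible peaks of the Bbc3 and Bax loci were high in CK mouse 1 (130.0, the others 112 to 116) and CK mouse 2 (121, the others 102 to 107). At the Bak1 locus, the Ggnbp1 peak was high in C mouse 1 (28.4, the others 25.4 to 25.7) and low in CK mouse 5 (25.3, the others 28.2 to 29.2), and the Itpr3 promoter was high in K mouse 1 (99.7, the others 93.9 to 94.9).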

How the results depend on the processing

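The number of called peaks in CK against WT (10 of 145) became 20 with a block for the replicate number (13.8%, beside 10.1% of all peaks), 23 at an adjusted p of 0.05 (15.9%, beside 15.4%), 5 with a log2 fold change above log2(1.5) added (3.45%, beside 3.12%) and 2 of 46 with gene bodies alone (4.35%, beside 6.84%); over the other alternatives it lay between 7 and 12, and leaving out 1 mouse gave 5 to 11. Against WT, K (0) became 1 with loess offsets, 1 with GC content bins, 3 with DESeq2's Wald test, 5 with the block (3.45%, beside 3.28%) and 5 at 0.05 (beside 5.38%), with 0 to 3 when 1 mouse was left out, and C (0) became 1 at 0.05. CK against C (2) became 1 with GC content bins, 3 with DESeq2's Wald test (2.07%, beside 2.91%), 8 with the block (5.52%, beside 3.93%), 4 with the Y signal as a covariate (2.76%, beside 2.93%), 11 at 0.05 (7.59%, beside 6.68%) and 0 with gene bodies alone, with 0 to 3 when 1 mouse was left out. DESeq2's calls here were 2 gained and 1 lost peak, and with only those genotypes fitted 1 peak was gained and 1 lost. K against C (1) became 0 with loess offsets, GC content bins, the Y signal or only those genotypes fitted, 3 with the block (2.07%, beside 2.15%) and 4 at 0.05 (2.76%, beside 3.62%), with 0 to 1 when 1 mouse was left out. Loci called in CK against WT (2 of 10) became 1 with total counts, GC content bins, gene bodies alone or 100 kb windows, 3 with loess offsets (beside 12.1% of all loci) and with the Y signal as a covariate (17.2%), 5 with DESeq2 (beside 19% of all loci) and at 0.05 (28.9%), 4 with the block (20.6%), and 0 without promoter peaks or with the fold threshold, with 0 to 2 when 1 mouse was left out. CK against C (0 loci) became 1 with the block (beside 8.7% of all loci) and 1 at 0.05 (12.9%), with 0 to 1 when 1 mouse was left out. The cause of these changes was not tested.

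Replicate numbers share no stated litter or day. All 4 same-numbered pairs of WT and C mice deviated together with a correlation above 0.1 (0.18 to 0.30), and the block called 0 peaks and 0 loci in that comparison too. In every other comparison at least 1 pair was below 0.1, with 13 of all 24 pairs above it (range -0.11 to 0.30), and there the numbers were not treated as pairing the mice, although 11 of 17 libraries matched best with one of their own number. With the block, the Mcl1 and Bcl2l11 loci were called in CK (adjusted p = 0.000166 and 0.00254), and the farther Bbc3 peak was not called against WT (0.0163). No call reversed its direction under any alternative run. Depth limits the weak peaks: those called at Bbc3, and the distal Mcl1 peak, held under 4 CPM in every library.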
